A study of Mus musculus with 2 samples.

Results

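A divergent promoter serves 2 genes that lie on opposite strands with their starts close together and their bodies pointing away from each other. On the mouse autosomes 734 such pairs of protein-coding genes were found, in which the most 5′ annotated starts lay 1 to 987 bp apart against a limit of 1000 bp. They held 1448 of the 20807 autosomal coding genes. The rule that picks the pairs uses the annotation alone and no measured value, although it was set with earlier results of these data known. The median distance between the starts was 128 bp, and 602 pairs lay at most 300 bp apart. Because 20 genes belonged to more than 1 pair, the 734 stretches merged to 713 distinct ones. A further 436 pairs whose 5′ ends overlap were left out. Of the pairs kept, 74 held a gene known only by a Gm or Rik model name.

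Divergent pairs are a common arrangement in mammalian genomes and are rich in housekeeping genes of DNA repair, mitochondrial function, RNA processing and protein synthesis. The stretch between the starts usually lies in a CpG island, can drive transcription both ways and is typically free of nucleosomes when active. Trimethylation of lysine 4 on histone H3 (H3K4me3) is laid down on the first nucleosomes of transcribed or poised genes, so that at an active divergent promoter a marked nucleosome can lie on either side of a shared nucleosome-free centre.

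H3K4me3 was profiled by carrier-assisted ChIP-seq (CATCH-seq) on native chromatin digested by micrococcal nuclease, in lung group 2 innate lymphoid cells (ILC2s), tissue-resident lymphocytes that make type 2 cytokines. There was 1 library from 8-week-old offspring of control mothers and 1 from 8-week-old offspring of asthmatic mothers, each from about 3000 sorted cells of C57BL/6J mice. Before mating, control mothers were injected with PBS and alum and asthmatic mothers with ovalbumin (OVA) and alum, and PBS or OVA respectively was then given into the nose during pregnancy. The study states 1 pregnant dam per group for the panels that hold these data, and no allergen given to the offspring is stated for these libraries. Differences between the libraries therefore cannot be told apart from differences between dams, litters, sorts or library preparations, and no test between the groups was possible. The deposited values are lists of peaks called separately in each library, with 42126 peaks for offspring of control mothers and 51610 for offspring of asthmatic mothers. Of these, 1044 and 794 lay at divergent pairs. The read depth of the libraries is not used here, since the lists hold no counts. Of 12 ILC2 marker genes, 9 were marked at a start in the control list, Klrg1, Icos and Il13 being without a peak. The list of offspring of asthmatic mothers marked 6, and Gata3, Il7r and Il5 were also without a peak. Of 4 epithelial markers, Epcam and Cdh1 were marked in the control list and none in the other, and their part in the results was not tested. The macrophage, endothelial, fibroblast, B cell and T cell markers had no peak in either list. Siglec5, one of 4 macrophage markers listed, matched no annotated start and could not be read.

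The sequence between the starts is short, and it is shown for the textbook pairs of at most 300 bp, since these are the bases around which the peaks described further on are placed. Letters are the plus strand of GRCm38, and capitals mark a CCAAT box or a GC box (GGGCGG) on either strand. The stretch of Col4a4/Col4a3, 2 chains of basement membrane collagen, lies at chr1:82586850-82586920. Wrap53/Trp53, a telomerase cofactor and the p53 tumour suppressor, share chr11:69580256-69580358. Brca1/Nbr1, a DNA repair protein and an autophagy receptor, share chr11:101551956-101552148. Mrps12/Sars2, a mitochondrial ribosomal protein and the mitochondrial seryl-tRNA synthetase, share chr7:28741821-28741991.
Col4a4/Col4a3: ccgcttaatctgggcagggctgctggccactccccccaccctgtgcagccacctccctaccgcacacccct
Wrap53/Trp53: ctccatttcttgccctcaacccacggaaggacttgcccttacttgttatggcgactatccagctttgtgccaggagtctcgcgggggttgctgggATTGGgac
Brca1/Nbr1: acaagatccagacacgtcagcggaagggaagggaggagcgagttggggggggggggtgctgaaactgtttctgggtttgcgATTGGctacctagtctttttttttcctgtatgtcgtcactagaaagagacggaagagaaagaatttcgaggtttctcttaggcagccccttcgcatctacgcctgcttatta
Mrps12/Sars2: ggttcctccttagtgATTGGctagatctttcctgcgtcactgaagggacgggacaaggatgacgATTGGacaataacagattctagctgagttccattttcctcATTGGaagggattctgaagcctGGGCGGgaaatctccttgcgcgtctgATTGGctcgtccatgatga

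A further 4 stretches were chosen after their values were seen. Il17rb/Chdh at chr14:30008897-30009022 holds the receptor of interleukin 25, an activator of ILC2s, beside choline dehydrogenase. Palb2/Dctn5 at chr7:122132986-122133040 holds a partner of BRCA2 in DNA repair beside a dynactin subunit, with one of the strongest marks of the repair pairs, on the Dctn5 side. Hist1h2ag/Hist1h2bj at chr13:22042945-22043213 joins an H2A to an H2B histone gene and has 5 CCAAT boxes. Ifit1bl2/Ifit1 at chr19:34640744-34640870 holds interferon-induced genes and had no mark.
Il17rb/Chdh: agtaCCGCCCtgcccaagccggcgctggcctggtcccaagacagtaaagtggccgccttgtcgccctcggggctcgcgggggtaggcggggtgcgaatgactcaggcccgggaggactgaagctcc
Palb2/Dctn5: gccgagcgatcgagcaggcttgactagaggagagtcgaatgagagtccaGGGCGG
Hist1h2ag/Hist1h2bj: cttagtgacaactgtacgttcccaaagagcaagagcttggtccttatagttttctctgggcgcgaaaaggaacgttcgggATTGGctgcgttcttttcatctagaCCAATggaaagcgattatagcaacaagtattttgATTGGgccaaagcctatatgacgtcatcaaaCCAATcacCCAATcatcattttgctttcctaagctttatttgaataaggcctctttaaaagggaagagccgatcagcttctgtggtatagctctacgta
Ifit1bl2/Ifit1: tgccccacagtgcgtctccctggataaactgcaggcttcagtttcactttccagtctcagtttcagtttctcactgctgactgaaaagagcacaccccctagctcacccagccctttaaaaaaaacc

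Over all pairs, these bases and their surroundings differed from those of other coding starts. Over 500 bp on either side of the middle of the pair, the median GC content was 60.3% against 53.0% at the 15414 lone coding starts, which have no other gene start within 2000 bp. A CpG-rich stretch (GC of at least 50% and an observed-to-expected CpG ratio of at least 0.6) was found at 617 of the 734 pairs (84.1%, exact Clopper-Pearson 95% interval 81.2 to 86.6%) and at 5625 lone starts. All intervals given here cover counting error only. Lone starts were read with a mock partner placed 128 bp upstream, the median distance of the pairs. The stretches read for peaks therefore match those of pairs in size at that median only.

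Within 300 bp around the middle, the ETS core CCGGAAG, bound by GABP and its relatives, was present at 28.3% of pairs (25.1 to 31.7%), at 16.7% of CpG-rich lone starts (15.7 to 17.7%) and at 11.4% of all autosomal coding starts. The CCAAT box, bound by NF-Y, stood at 44.3% of pairs (40.6 to 48.0%) and 35.5% of CpG-rich lone starts (34.2 to 36.7%), with 37.7% of all starts. The YY1 core AAGATGGCG was found at 5.59% of pairs (4.04 to 7.50%) against 3.15% of CpG-rich lone starts (2.71 to 3.64%) and 1.97% of all starts. The palindrome TCTCGCGA was found at 5.04% of pairs (3.57 to 6.88%), 2.35% of CpG-rich lone starts (1.97 to 2.78%) and 1.36% of all starts. For the NRF1 core CGCATGCG the intervals of pairs (5.18%, 3.69 to 7.04%) and CpG-rich lone starts (4.23%, 3.72 to 4.79%) overlapped, with 2.35% of all starts. TATAAA was as rare at pairs (4.50%, 3.11 to 6.26%) as the interval of CpG-rich lone starts allows (4.85%, 4.31 to 5.45%), against 11.9% of all starts. The GC box GGGCGG stood at 67.8% of pairs (64.3 to 71.2%) and 44.9% of all starts. At CpG-rich pairs it stood at 72.9% (69.2 to 76.4%) and at CpG-rich lone starts at 76.3% (75.2 to 77.4%), whose intervals overlap. Each motif was searched as written on both strands. The 300 bp hold the surroundings of 2 annotated starts at a pair and of 1 at a lone start, and the part of this in the shares was not tested. A match is a run of letters and says nothing on binding.

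Nearly all divergent pairs carried H3K4me3 in offspring of control mothers. A peak overlapped the stretch from 1000 bp beyond one start to 1000 bp beyond the other at 670 of 734 pairs (91.3%, 89.0 to 93.2%), against 48.6% of all autosomal coding starts read in the same way. Peaks of offspring of asthmatic mothers lay at 585 pairs (79.7%, 76.6 to 82.6%), against 40.1% of all starts. At CpG-rich pairs the shares were 96.8% (597 of 617) and 85.9% (530 of 617), and at CpG-rich lone starts 80.7% (79.7 to 81.8%) and 68.0% (66.8 to 69.2%). The 755 coding starts that face a noncoding start, CpG-rich or not, were at 73.2% and 63.6%. Among the 117 pairs that are not CpG-rich, 62.4% and 47.0% had a peak.

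A pair has 2 starts at which a peak can lie, so the sides were also read singly, a side being the 1000 bp from a start into its own gene. Per side the pairs stood near the lone starts. In offspring of control mothers 83.1% of the sides of CpG-rich pairs were marked (80.9 to 85.2%), against 79.5% of the own sides of CpG-rich lone starts (78.4 to 80.6%). In offspring of asthmatic mothers the order turned, with 59.6% of the sides of CpG-rich pairs (56.8 to 62.4%) against 66.4% of the lone ones (65.1 to 67.6%). The 2 sides of a pair share a stretch and are not independent.

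The usual picture in offspring of control mothers was a peak on either side with an unmarked centre. Of the 670 marked pairs, 357 had separate peaks on their 2 sides (53.3%, 49.4 to 57.1%), 104 had 1 peak reaching over both (15.5%, 12.9 to 18.5%) and 209 were marked on 1 side only (31.2%, 27.7 to 34.9%). Both sides were thus marked at 68.8% of marked pairs (65.1 to 72.3%). At marked lone starts, the own side and that of the mock partner were both marked at 24.3% (23.3 to 25.4%), at CpG-rich lone starts at 28.8% (27.5 to 30.2%) and at starts facing a noncoding start at 39.4% (35.3 to 43.6%). A pair has 2 annotated starts and a lone start 1, so a higher share at pairs than at lone starts was given in advance. Separate peaks accounted for most of this distance from the lone starts, as they were found at 11.1% of marked CpG-rich lone starts (10.2 to 12.0%), while 1 peak over both was found at 17.7% (16.6 to 18.9%). By number of peaks, 284 pairs had 1, 367 had 2 and 19 had 3.

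In offspring of asthmatic mothers most marked pairs were marked on 1 side. Of 585 marked pairs, 365 were one-sided (62.4%, 58.3 to 66.3%), 191 had separate peaks (32.6%, 28.9 to 36.6%) and 27 had 1 peak over both (4.62%, 3.06 to 6.64%). In 2 pairs the peak lay between the starts alone. Both sides were marked at 37.3% (33.3 to 41.3%) of marked pairs, against 12.4% (11.3 to 13.5%) of marked CpG-rich lone starts in the same list. The peaks of this list were narrower as a whole, with a median of 249 bp over all its peaks against 315 bp in offspring of control mothers.

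**Figure D1:**
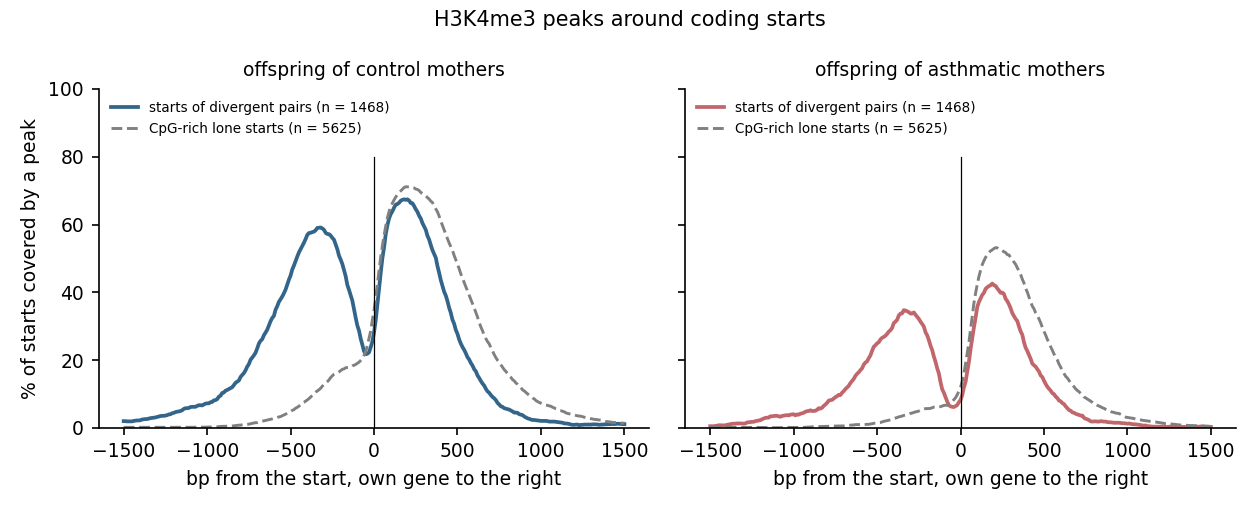
Share of starts covered by a listed H3K4me3 peak (y axis, %) by distance from the start (x axis, bp, own gene to the right), for both starts of the 734 divergent pairs (solid) and for the 5625 CpG-rich lone starts (dashed), with offspring of control mothers on the left and of asthmatic mothers on the right. The pairs show 2 humps with a trough near the start, at 67.4% at 180 bp into the gene, 28.2% at the start and 59.1% at 320 bp upstream in offspring of control mothers, while the lone starts show 1 hump at 71.1%.

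The coverage of the starts by peaks shows the same 2 humps. In offspring of control mothers coverage of the starts of pairs was highest 180 bp into the gene (67.4%), fell to 28.2% at the start itself and rose again to 59.1% at 320 bp upstream, where the partner gene lies. CpG-rich lone starts reached 71.1% at 190 bp into the gene and had 10.5% at 350 bp upstream. Farther into the gene the pairs fell off sooner, with 27.7% covered at 500 bp against 48.2% of the lone starts. The humps of the pairs in offspring of asthmatic mothers stood at 42.6% at 190 bp and 34.7% at 340 bp upstream with 8.24% at the start, and lone starts reached 53.2% at 210 bp, with 28.4% still covered at 500 bp against 13.9% at pairs.

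Accordingly the single peaks were somewhat narrower at pairs and the marked length of the whole stretch longer. The stretch of a pair holds more annotated starts than that of a lone start, and the part of this in the covered length was not tested. The widest peak of a marked pair had a median width of 514 bp (495 to 533 bp) in offspring of control mothers, against 566 bp (558 to 573 bp) at CpG-rich lone starts. The bases covered in the stretch had a median of 744 bp (715 to 770 bp) at pairs and 608 bp (600 to 616 bp) at CpG-rich lone starts. For offspring of asthmatic mothers the widest peak measured 333 bp (321 to 346 bp) against 373 bp (367 to 378 bp), and the covered length 420 bp (391 to 442 bp) against 403 bp (393 to 409 bp), whose intervals overlap. The strongest peak of a whole pair was as strong as at lone starts within the intervals, although it is picked from more annotated starts. Its median −log10 q was 14.2 (13.9 to 14.7) in offspring of control mothers, against 14.3 (14.1 to 14.6) at CpG-rich lone starts, and 8.29 (7.75 to 8.65) against 8.30 (8.14 to 8.52) in offspring of asthmatic mothers. Read per side in the control list, marked sides of CpG-rich pairs had a lower median. It was 12.8, against 14.3 on the own sides of CpG-rich lone starts. The −log10 q is the authors' value for a peak against the background of its own library and is compared only within a list.

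Summits lay beyond the starts and seldom between them. Among marked pairs in offspring of control mothers, the strongest summit lay in the gene on the minus strand at 327, in the gene on the plus strand at 318 and between the starts at 25 (3.73%, 2.43 to 5.46%), although 8.46% of the bases of these stretches lie between the starts. Counts in offspring of asthmatic mothers were 283, 289 and 13 (2.22%, 1.19 to 3.77%), with 8.28% of the bases between. CpG-rich lone starts, read with their mock partner, had 2.29% (1.87 to 2.77%) and 1.88% (1.48 to 2.36%), and all autosomal coding starts 2.40% and 2.35%, so a low share was not particular to pairs. The strongest summit lay a median of 206 bp (198 to 216 bp) into the nearer gene in the control list and 195 bp (186 to 210 bp) in the other, against 233 bp (228 to 238 bp) and 250 bp (242 to 256 bp) at CpG-rich lone starts. The strongest summit lay between the starts at none of the 117 and 108 marked pairs up to 50 bp apart, where 1.58% and 1.60% of the bases lie between. At pairs more than 500 bp apart it did in 10 of 54 (18.5%, 9.25 to 31.4%) and 6 of 45 (13.3%, 5.05 to 26.8%), where 25.8% and 25.9% of the bases lie between.

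**Figure D2:**
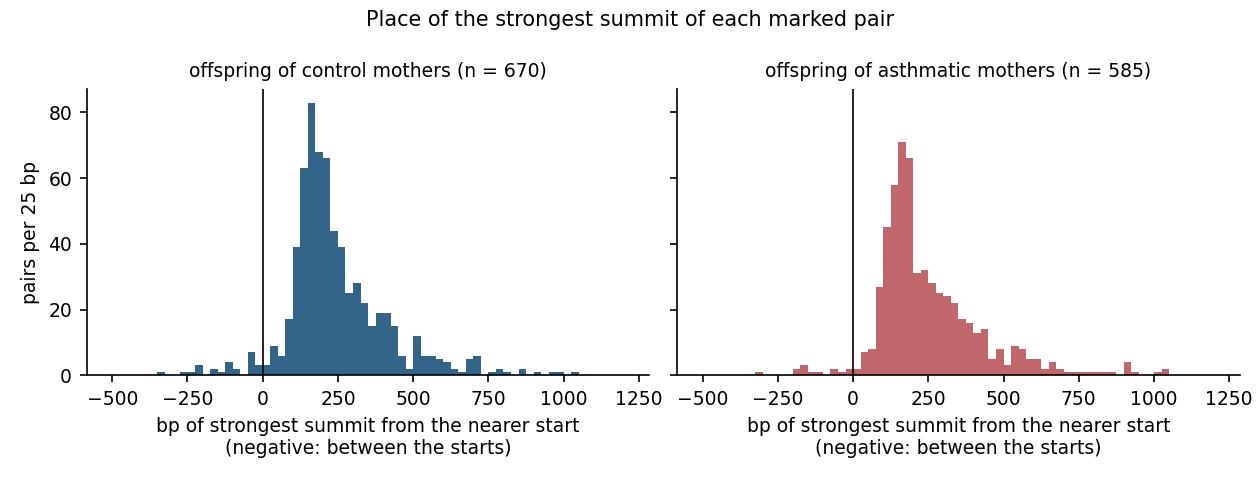
Number of marked pairs per 25 bp (y axis) by the distance of their strongest summit from the nearer start (x axis, bp, positive into the gene and negative between the starts), for 670 pairs in offspring of control mothers (left) and 585 in offspring of asthmatic mothers (right). Most summits lie beyond the starts, with medians of 206 and 195 bp, and 25 and 13 lie between them.

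At pairs with separate peaks the edges of both peaks bordered the starts closely. In offspring of control mothers the near edge lay a median of 41.5 bp (37 to 48 bp) inside the gene over 714 sides, and 79.4% of the edges lay inside. At 62.2% of these pairs no base between the starts was covered. The peak-free gap had a median of 235 bp (213 to 258 bp), and the summits stood 597 bp apart (569 to 620 bp). The gap in offspring of asthmatic mothers was 302 bp (272 to 328 bp), the near edge lay 76 bp inside (67 to 83 bp) and 82.2% of the pairs had no covered base between the starts. Across pairs the gap was longer where the starts lay farther apart, with a Spearman rho of 0.50 over 357 pairs and 0.51 over 191, given as a description since a gap contains most of the distance it is set against. Pairs at most 50 bp apart still had a median gap of 145 bp in the control list.

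The distance between the starts went with the layout. In offspring of control mothers 1 peak over both sides was found at 39 of the 117 marked pairs up to 50 bp apart (33.3%, 24.9 to 42.6%), at 36 of 167 between 51 and 100 bp (21.6%) and at 19 of 183 between 101 and 200 bp (10.4%). It was found at 8 of 93 pairs between 201 and 300 bp apart, and at 1 of 56 and 1 of 54 beyond that. One-sided pairs went the other way, from 21.4% (14.3 to 29.9%) up to 50 bp to 61.1% (46.9 to 74.1%) between 501 and 1000 bp. The share with any peak stayed between 91.5% and 96.9% up to 300 bp and was 79.4% (67.9 to 88.3%) between 501 and 1000 bp. The other list had 1 peak over both at 9, 13 and 5 marked pairs in the 3 closest classes and at none beyond 200 bp. Its one-sided share showed no steady rise, with 58.5% to 65.8% of the marked pairs in every class up to 500 bp and 73.3% (58.1 to 85.4%) beyond. At the limit itself, Asphd1/Sez6l2 (981 bp) had no peak in either list and Btf3l4/Txndc12 (987 bp) was marked on the Btf3l4 side alone in both. Just outside it, Gpr108/Trip10 (1009 bp) had separate peaks in both lists, and Sgsm2/Tsr1 (1011 bp) had them in the control list and a one-sided mark in the other.

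**Figure D3:**
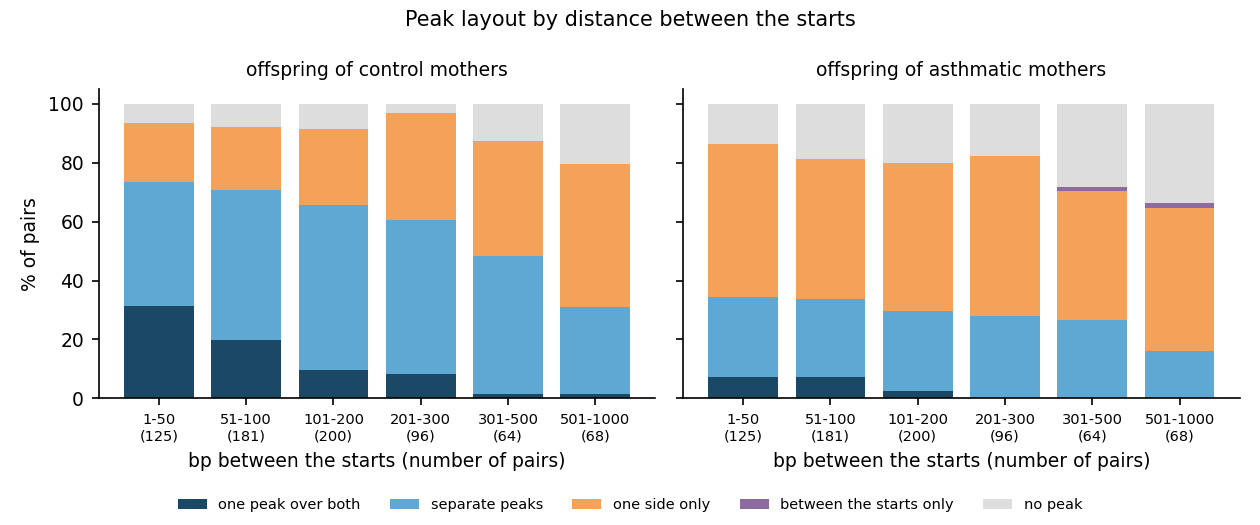
Share of pairs (y axis, %) in each peak layout, stacked, by the distance between the starts (x axis, bp, number of pairs in brackets), for offspring of control mothers (left) and of asthmatic mothers (right). One peak over both sides is found at 39 of the 125 closest pairs and 1 of the 68 farthest in offspring of control mothers, and one-sided marks are the largest class at every distance in offspring of asthmatic mothers.

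The share with both sides marked was also read by strength. Marked pairs were put into 4 bands of the −log10 q of their strongest peak, cut at the quartiles of all marked coding starts in the list. In offspring of control mothers both sides were marked at 53.8% (44.4 to 63.1%), 68.8% (61.7 to 75.3%), 74.4% (68.0 to 80.1%) and 72.5% (64.6 to 79.5%) of pairs from the lowest band to the highest. CpG-rich lone starts had 25.5%, 33.5%, 32.7% and 23.9%. Pairs in offspring of asthmatic mothers had 15.6% (9.36 to 23.8%), 36.8% (29.6 to 44.5%), 43.6% (35.9 to 51.6%) and 47.1% (38.7 to 55.8%), and CpG-rich lone starts between 8.30% and 14.8%.

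**Figure D4:**
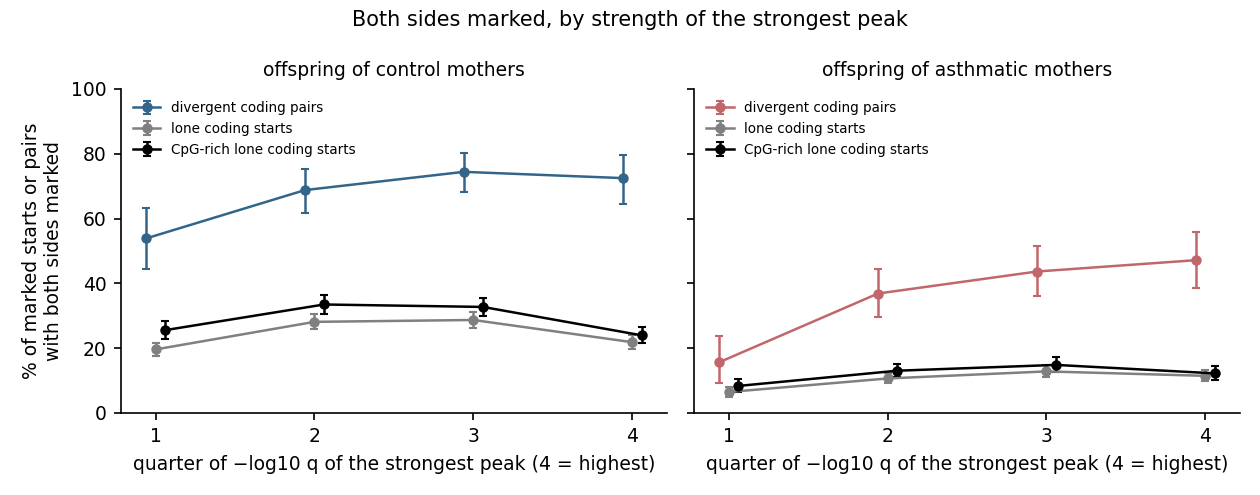
Share of marked pairs or lone starts with both sides marked (y axis, %) by band of the −log10 q of the strongest peak (x axis, 4 is the highest), for offspring of control mothers (left) and of asthmatic mothers (right), with exact 95% intervals as bars. Pairs lie above lone starts in every band of both lists, from 53.8% to 74.4% in the control list, and the intervals of pairs and CpG-rich lone starts overlap in the lowest band of offspring of asthmatic mothers alone.

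Where a pair was marked on 1 side only, it was mostly the side richer in GC. Over the 500 bp from each start into its gene, the marked side had the higher GC at 191 of 209 one-sided pairs in offspring of control mothers (91.4%, 86.7 to 94.8%), with medians of 64.0% on the marked and 51.2% on the unmarked side. It did so at 314 of 365 in offspring of asthmatic mothers (86.0%, 82.0 to 89.4%), with medians of 64.4% and 54.0%. The CpG ratio was higher on the marked side at 83.7% (78.0 to 88.5%) and 74.0% (69.2 to 78.4%). Where both sides had separate peaks, the stronger was on the side of higher GC at 67.5% (62.4 to 72.3%) and 63.4% (56.1 to 70.2%). Neither strand was preferred, with 111 of 209 and 177 of 365 one-sided marks in the gene on the minus strand. Pairs were also put into 4 classes at the quartiles of GC. In the control list the lowest class was marked at 81.0%, with both sides at 44.1% of the marked, and the highest at 97.8% and 81.8%. The same classes of the other list went from 60.9% and 15.6% to 92.4% and 52.0%. Lone starts in these GC classes went from 22.8% marked and 11.9% with both sides to 75.7% and 46.8% in the control list. Recovery of fragments after PCR can also vary with GC, and its part here was not tested.

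Of the 670 pairs marked in offspring of control mothers, 583 were marked in offspring of asthmatic mothers as well (87.0%, 84.2 to 89.5%), against 83.7% of CpG-rich lone starts (82.6 to 84.7%), 79.2% of all lone starts (78.2 to 80.2%) and 86.3% of starts facing a noncoding start (83.1 to 89.0%). The control list alone marked 87 pairs (11.9% of pairs), against 9.01% of all autosomal coding starts, and the asthmatic list alone 2 (0.272%), against 0.524%. With the 10000 peaks of highest −log10 p of each list, 23.8% (113 of 474) of the pairs marked in the control list were marked in the other, so the overlap depends on how far down the lists are read. This cut was read for pairs alone, so nothing particular to pairs is taken from it. The strongest peak stood at a median percentile of −log10 q of 84.0 in the control list and 62.6 in the other at pairs, and of 83.2 and 60.8 at all autosomal coding starts. With 1 library per group these shares describe 2 lists and not the 2 conditions. A peak in only one list may fall short of the other list's threshold, and depth, enrichment and maternal treatment cannot be told apart here.

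Both sides were marked in the other list as well at 211 of the 461 pairs with both sides in the control list (45.8%, 41.2 to 50.4%). The same share was 31.2% at CpG-rich lone starts (28.7 to 33.8%) and 36.7% at all autosomal coding starts (35.1 to 38.3%). Of the 357 pairs with separate peaks in offspring of control mothers, 166 kept separate peaks in offspring of asthmatic mothers (46.5%, 41.2 to 51.8%), 156 were marked on 1 side (43.7%, 38.5 to 49.0%) and 32 had no peak. Of the 104 pairs with 1 peak over both, 51 became one-sided, 23 kept 1 peak over both, 20 had separate peaks and 10 had none. Of the 209 one-sided pairs, 156 stayed one-sided, and the side was the same in 155 of them. The side that remained at the 156 pairs going from separate peaks to 1 side was the stronger one of the control list at 124 (79.5%, 72.3 to 85.5%), and at 67 of the 75 whose sides differed by at least 5 in −log10 q (89.3%, 80.1 to 95.3%) against 57 of the 81 that differed by less (70.4%, 59.2 to 80.0%). It was the side richer in GC at 128 (82.1%, 75.1 to 87.7%). Where both lists had separate peaks, the stronger side was the same at 91 of 166 (54.8%, 46.9 to 62.5%), with 49 of 76 (64.5%, 52.7 to 75.1%) where the sides differed by at least 5 and 42 of 90 (46.7%, 36.1 to 57.5%) where they differed by less.

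Read per side, the lists shared fewer marks at pairs than at lone starts. Of the marked sides of CpG-rich pairs in the control list, 70.9% were marked in the other list (68.0 to 73.6%), against 82.9% of the own sides of CpG-rich lone starts (81.8 to 84.0%). The strongest peak on these sides had a median −log10 q of 12.8 and 14.3. In the lowest of 4 bands of −log10 q the shares were alike within their intervals, with 47.5% (41.9 to 53.1%) of pair sides and 50.8% (47.7 to 53.8%) of lone ones. In the bands above, pair sides had 74.6% (69.1 to 79.5%), 84.1% (79.1 to 88.3%) and 89.1% (83.3 to 93.4%), and lone sides 86.8% (84.6 to 88.8%), 93.8% (92.3 to 95.2%) and 96.8% (95.6 to 97.7%). A peak that reaches over both sides counts for each of them, and this comparison was added after the earlier counts had been seen.

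Of the 19 textbook pairs listed, 8 fell under the definition, and 7 of them were marked in both lists. Both sides were marked at 4 in offspring of control mothers and at 1 in the other list. Mcm4/Prkdc, a subunit of the replicative helicase and the catalytic subunit of DNA-dependent protein kinase, was the pair marked on both sides in both lists. Its −log10 q was 16.0 on the Mcm4 side and 10.3 on the Prkdc side in offspring of control mothers, and 6.86 and 9.45 in offspring of asthmatic mothers. The stronger side was thus not the same in the lists.

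Mrps12/Sars2, whose 171 bp between the starts hold 4 CCAAT boxes and a GC box, had a −log10 q of 7.86 on the Mrps12 side and 15.8 on the Sars2 side in offspring of control mothers. The Sars2 side alone was marked in offspring of asthmatic mothers, at 9.03. Gart/Son, an enzyme of purine synthesis and a splicing cofactor, went from 3 peaks (2.68 on the Gart side and 12.6 on the Son side) to 1 on the Son side (4.93). At Wrap53/Trp53 the mark on the Trp53 side was 873 bp wide with a −log10 q of 10.1, and a peak of 7.74 reached the outer edge of the Wrap53 side. The other list marked the Trp53 side alone, with 5.60.

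A further 3 textbook pairs were one-sided in both lists, each on the same side. Atm/Npat, the kinase of DNA double-strand breaks and a histone gene activator, was marked on the Npat side, with 24.0 and 11.5. Brca1/Nbr1 was marked on the Nbr1 side, with 13.9 and 10.1. Pdcd10/Serpini1, a vascular signalling protein and the neuronal inhibitor neuroserpin, was marked on the Pdcd10 side, with 16.5 and 6.00, and had a further peak between the starts in both lists. Col4a4/Col4a3 had no peak, the nearest of the control list lying 33590 bp away. The starts are the most 5′ ones annotated and need not be those used in ILC2s.

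**Figure D5:**
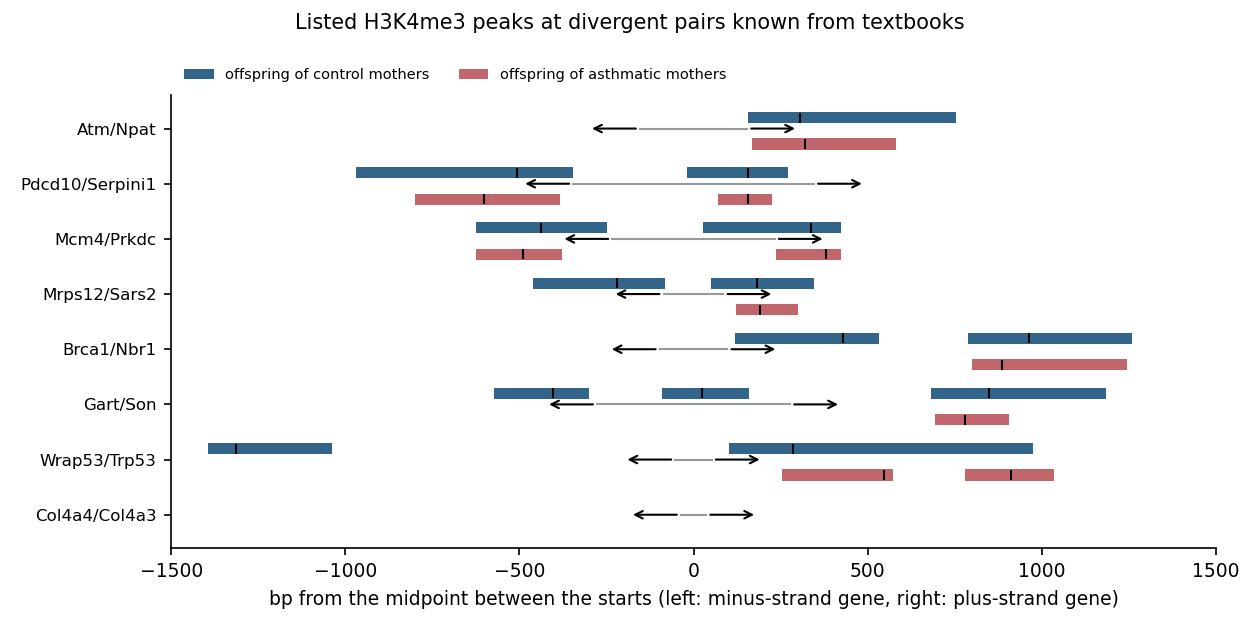
Listed peaks at the 8 textbook pairs, by distance from the midpoint between the starts (x axis, bp, minus-strand gene to the left), with offspring of control mothers above and of asthmatic mothers below each line of arrows, arrows at the starts and ticks at the summits. Mcm4/Prkdc has peaks on both sides in both lists, Atm/Npat and Brca1/Nbr1 have them on the right alone, and Col4a4/Col4a3 has none.

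The counts of the functional lists are read beside those of all pairs, of which 91.3% and 79.7% were marked in the control list and the other, with both sides at 68.8% and 37.3% of the marked. The lists differ in length, and nothing particular to a list is read from its counts. Of 124 listed genes of DNA replication and repair, 34 lay in 34 pairs. All 34, of which 2 share Rpa3, were marked in the control list and 31 in the other, with both sides at 26 and 8. Palb2/Dctn5 had the strongest mark of the group. Its −log10 q was 13.9 on the Palb2 side and 26.1 on the Dctn5 side in the control list, and 5.17 and 18.1 in the other, with summits on either side of the 55 bp printed above. Emc3/Fancd2, a membrane protein insertase subunit and the Fanconi anaemia protein D2, with starts 30 bp apart, had 1 peak over both of 22.3. The other list marked the Emc3 side alone, at 9.59. Polk/Col4a3bp, a translesion polymerase and the ceramide transporter, was marked on the Col4a3bp side alone in both lists, with 22.5 and 9.44.

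Genes of mitochondria and protein synthesis made up several lists. All 18 pairs with a mitochondrial ribosomal protein were marked in the control list and 14 in the other, with both sides at 12 and 4. Ptcd2/Mrps27 was the strongest, with separate peaks in offspring of control mothers, 20.6 on the Ptcd2 side and 6.49 on the Mrps27 side. The Ptcd2 side alone was marked in offspring of asthmatic mothers, at 11.5. The 12 pairs with a subunit or assembly factor of respiratory complex I were marked at 12 and 11, with both sides at 9 and 5. Among these, Tatdn1/Ndufb9, with starts 18 bp apart, kept separate peaks in both lists. Its Ndufb9 side had 25.1 and 11.5 and its Tatdn1 side 10.3 and 3.62.

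The 5 pairs with an aminoacyl-tRNA synthetase were marked at 5 and 4, and both sides at 5 and 1. S100pbp/Yars was the one that kept both sides, with a strongest value of 17.0 and then 13.2, each on the S100pbp side. Of 10 pairs under the symbols of cytosolic ribosomal proteins, which include the kinase pair Rps6kb1/Tubd1, 9 were marked in either list, with both sides at 5 and 0. Med22/Rpl7a had separate peaks with 21.9 and then a one-sided 5.28. Rnf151/Rps2 had no peak within its stretch, and the nearest peak of the control list lay 427 bp outside.

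Of 9 pairs with an RNA polymerase subunit, 9 and 6 were marked and 6 and 4 had both sides. Polr3g/Mblac2, with 16.0, and Lnx2/Polr1d, with 15.9, were the strongest of these in offspring of control mothers, and both had their strongest summit between the starts. Noa1/Polr2b kept separate peaks, with 15.6 and 7.57 on the Polr2b side. Polr1c/Yipf3 went from separate peaks, with 15.4 on the Yipf3 side, to 11.0 on the Yipf3 side alone. Of 5 proteasome pairs, 5 and 4 were marked and 2 and 1 had both sides, the latter being Psma7/Ss18l1. Its strongest peak was on the Psma7 side with 14.0 and then on the Ss18l1 side with 5.19. Of 18 zinc finger pairs, 17 and 15 were marked, and both sides at 12 and 8. Zfp942/Zfp943 and Zfp944/Zfp758, in which both genes encode zinc fingers, had 1 peak over both in either list, with 22.3 and 21.7 in offspring of control mothers and 11.5 and 7.05 in offspring of asthmatic mothers. Zfp558/Mbd3l1 had none.

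Of 14 core histone pairs 13 were marked in either list, with both sides at 11 and 8. Hist1h2ah/Hist1h2bk had a −log10 q of 29.7 on the H2A side and 18.4 on the H2B side in offspring of control mothers, and 12.7 and 8.79 in offspring of asthmatic mothers. Hist1h2ag/Hist1h2bj, the pair with 5 CCAAT boxes, had 26.6 and 7.83, and 11.3 and 7.47. Hist1h2ba/Hist1h2aa, the testis histone pair, had no peak. Copies of these genes are near-identical, so the placing of reads among them is uncertain.

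Of 88 lymphocyte receptors, signalling genes and transcription factors listed, 2 belonged to a pair, beside 1448 of all 20807 autosomal coding genes. Il17rb/Chdh had 1 peak of 1128 bp over both starts in the control list, with a −log10 q of 11.0 and its summit on the Il17rb side. The other list had a peak of 278 bp on the Chdh side alone, with 9.03. Park7/Tnfrsf9, an oxidative stress protein and the costimulatory receptor 4-1BB, was marked on the Park7 side in offspring of control mothers, with 7.41, and had no peak in offspring of asthmatic mothers. Of 39 genes of antigen presentation and the interferon response, 3 lay in 2 pairs. Psme2/Rnf31, a proteasome activator and a ubiquitin ligase subunit, had both sides marked in both lists, with 8.26 and 13.4 and then 6.64 and 9.67. Ifit1bl2/Ifit1, whose 127 bp between the starts hold a single CpG, had no peak.

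The strongest mark of all pairs by −log10 q was at Hjurp/Trpm8, the centromere histone chaperone and a cold-sensing ion channel, with starts 28 bp apart. Its fold was 8.28 in the control list and 8.35 in the other, where the strongest peaks of pairs reached 12.2 and 10.5. The pair had 1 peak over both in either list, with a −log10 q of 45.9 and 29.9 and the summit on the Hjurp side. Cep44/Fbxo8 followed in offspring of control mothers, with 30.7 on the Fbxo8 side and 15.1 on the Cep44 side, and Urod/Hectd3 with a one-sided 30.7. Eaf2/Golgb1 with 19.3 and Cdca2/Kctd9 with 19.1 followed in offspring of asthmatic mothers. The widest peaks in offspring of control mothers were those of Tlnrd1/Mesd (1335 bp), Ift80/Smc4 (1309 bp) and Utp18/Mbtd1 (1283 bp). Those of the other list were Pcmt1/Lats1 and Dzip3/Cip2a (917 bp each) and Uqcrh/Lrrc41 (841 bp). The single wide peak of Utp18/Mbtd1 stood against 4 peaks in offspring of asthmatic mothers, and Slc30a7/Extl2 likewise went from 1 peak to 4.

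The strongest pairs marked in offspring of control mothers alone were Zfp169/A830005F24Rik (25.9), Gtf2e1/Rabl3 (23.7) and Casc1/Etfrf1 (21.1). Gtf2e1 encodes a subunit of the general transcription factor TFIIE. The nearest peaks of the other list lay 30912, 45793 and 37519 bp away. The 2 pairs marked in offspring of asthmatic mothers alone were Tbc1d16/Ccdc40 (5.17) and Nek8/Tlcd1 (4.79), each on 1 side with a narrow peak of 164 and 156 bp. The 62 pairs marked in neither list included 44 that are not CpG-rich. Among them, named after their values were seen, were pairs of genes known from other tissues, such as Kirrel2/Nphs1 of the kidney filter, Duox2/Duoxa2 of the thyroid, Smyd1/Cd8b1 of muscle and T cells and Pecam1/Milr1 of endothelium and mast cells. Nmur1/Tex44, which holds the neuromedin U receptor known from ILC2s, also had no peak, the nearest lying 7317 bp away in offspring of control mothers. Ddx5/Cep95, of which Ddx5 encodes a widely expressed RNA helicase, had none within its stretch, but a peak 244 bp outside it in offspring of asthmatic mothers.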

How the data were processed

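Libraries, 1 per group, were H3K4me3 CATCH-seq of sorted lung ILC2s, grouped by the treatment in the labels. Per the labels and the study's methods, the authors trimmed the reads with Trim Galore and cutadapt, aligned them to GRCm38 with Bowtie2 and removed duplicates. The peak caller and its threshold are not given in the sources used here. According to the reporting summary the authors called no ChIP-seq peaks, yet each library came with a deposited list. Each listed peak has a score, a fold (ratio of signal over background), and the p-value and q-value as −log10 p and −log10 q, deposited by the authors and set within that library. These values rank peaks within a list and are not scaled between lists. The smallest −log10 q listed was 2.02 and 2.01.

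Gene starts came from GENCODE vM21 and sequence from the RefSeq copy of GRCm38. Positions are counted from 1. A pair was read from 1000 bp beyond one start to 1000 bp beyond the other, and a peak counted with an overlap of at least 1 bp. Shares have exact Clopper-Pearson 95% intervals and medians have intervals from order statistics. Genes named were those of a textbook list and of functional lists (up to 4 pairs a list with the highest −log10 q, and any unmarked), the 3 pairs with the highest −log10 q, the widest peak or the most peaks in each list or marked in 1 list only, and the 2 on either side of the distance limit. The members and lists were chosen with earlier results of these data known. The functional lists are symbol patterns and hand-written names. The reading of peaks was tested on simulated data, in which layout, summit place and peak count came out as planted at all 600 mock pairs. Some of these mock pairs were planted without a peak. Pair finding was checked on a small made-up annotation. Tools were samtools 1.23.1 and, under Python 3.11.15, pysam 0.24.0, pandas 2.3.3, numpy 2.4.6, matplotlib 3.10.9 and scipy 1.17.1. Alternatives covered the distance limit, the flank, the −log10 q, the overlap, joined peaks, overlapping pairs and gene models. One pair that the naming rule selects is not reported here.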

Additional observations from a re-analysis of the deposited data

How the results depend on the processing

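Of 71 alternative values, 54 stayed within the interval of the value reported and 17 moved. With starts at most 300 bp apart, both sides were marked at 73.0% of marked pairs in offspring of control mothers, and strongest summits between the starts came to 1.61% and, in offspring of asthmatic mothers, 0.810%. Restricting the lists to a −log10 q from 5 upwards left offspring of asthmatic mothers with 71.5% of pairs with a peak, 33.0% with both sides and 31.2% with 2 or more peaks, and 78.8% of pairs marked in the control list were marked in the other. With overlapping pairs added, whose sides overlap by construction, offspring of control mothers had 77.0% with both sides, a median width of 534 bp, 2.37% of summits between and 51.8% with 2 or more peaks, and offspring of asthmatic mothers 52.8% with both sides. Joining peaks up to 1000 bp apart merges neighbours by construction and gave widths of 910 and 471 bp, with 0.746% and 0.855% of pairs at 2 or more. With the 10000 peaks of highest −log10 p of each list, 23.8% of pairs marked in the control list were marked in the other. This cut was read for pairs alone, and the cause was not tested. No paired analysis was possible because each group holds 1 library. The flank of 500 bp and leaving out shared or unnamed genes moved none of these values, nor did the overlap of 100 bp move the shares with a peak and with both sides, for which alone it was run. Without replicates, library depth, enrichment and treatment cannot be told apart, and a pair without a listed peak may carry a mark below the caller's threshold.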
